A study of Homo sapiens with 16 samples.

Results

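Aminoacyl-tRNA synthetases were followed through 45 h of HER2 kinase inhibition in MCF10A cells, as the genes listed for the cytosolic and the mitochondrial enzymes. Of 29 listed genes, 26 had a row under their symbol among the 18190 symbols of the array, with all 18 cytosolic genes and 8 of the 11 mitochondrial genes. WARS2, EARS2 and CARS2 were not analysed here. Members were taken by symbol from a list of this enzyme family, and the rule uses no measured value. MCF10A (labelled MCF-10A) is a line of human mammary epithelial cells that are not transformed, grown here in medium with insulin, EGF and hydrocortisone. The 0 h array is from cells whose source is labelled untreated, and each of the other 15 arrays is from a parallel culture given CP724,714, a small molecule that blocks the kinase of HER2, at 1 µM for 3 to 45 h in steps of 3 h. Each time point had 1 Illumina human Ref8v2 array and no replicate, the medium was changed when treatment began, and cultures without inhibitor were not followed here, so inhibitor, medium change and time in culture cannot be told apart. Each array measured RNA of a whole culture, so fewer cells expressing a gene and less of its RNA per cell cannot be told apart either.

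Each synthetase joins an amino acid to its own tRNAs, the step that sets which amino acid a codon is read as. Most animal cells keep separate nuclear genes for the cytosolic enzyme and for the mitochondrial enzyme, whose symbol ends in 2, whereas GARS and KARS serve both compartments from the same gene. The enzymes fall into a pair of unrelated structural classes, and DARS, EPRS, IARS, KARS, LARS, MARS, QARS and RARS sit together in the cytosolic multisynthetase complex. When amino acids run short, uncharged tRNA activates the kinase GCN2 and raises the factor ATF4, which is known to drive many cytosolic synthetase genes together with genes of amino acid synthesis and transport.

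The arrays were alike in depth, with median intensities from 210 to 254 and 50.1 to 52.9% of rows above the negative control beads. Of 14 markers of MCF-10A cells, 9 were above background on all 16 arrays, KRT5, KRT17 and EGFR among them, while 3 were above it on none, ITGA6 and LAMB3 among them, LAMB3 through a combined row with intensities from 1658 to 4132. For combined rows the call above background may not be comparable with that of single-probe rows. The summed intensity of all 14 MCF-10A markers ran from 73882 at 0 h to 125996 at 36 h. Of 14 markers of other cell types, 11 were above background on no array, while the endothelial PECAM1 was on 15 arrays with intensities from 234 to 362, PTPRC on 5 and MYOD1 on 2. The sums of these 14 lay between 2468 and 2859.

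All 26 synthetase genes were above background on all 16 arrays, through the brightest row of each gene, and 20 of them changed with time (limma, moderated F-test on a spline of time, adjusted p under 0.05), where 54.6% of the 11957 tested probes did. VARS was above background through a combined row, for which that call may not be comparable. Time dependence was called for 16 of 18 cytosolic genes and 4 of 8 mitochondrial genes. Between its lowest and its highest array, MARS2, the mitochondrial methionine enzyme, spanned 3.90-fold, AARS 2.90-fold, CARS 2.38-fold, TARS 2.21-fold, NARS2 2.21-fold, WARS 2.16-fold and LARS2 2.13-fold. The deposited intensities of MARS2 ran from 335 to 782 and those of CARS from 338 to 531, against 3286 to 9172 for AARS. The background correction thus enters the spans of dim genes such as MARS2 and CARS more. In all, 13 genes spanned at least 1.7-fold. The narrowest course was that of NARS, the cytosolic asparagine enzyme, at 1.27-fold. The genes did not share a course, as the map of all members by time shows. The 0 h array was the highest of the series for 9 genes and the 9 h array for 4, while the 3 h array was the lowest for 8 genes and the 45 h array for 5. Spans and extreme arrays were not counted over all tested probes, so these counts cannot be called particular to the synthetases. Steps of at least 1.25-fold between neighbouring arrays were most frequent at 3 to 6 h, where 4 genes went up and 4 down, at 33 to 36 h, where 1 went up and 6 down, at 9 to 12 h, with 3 in each direction, and at 6 to 9 h, with 3 up and 2 down. Over all tested probes the median absolute log2 step was also largest at 33 to 36 h (0.247), 9 to 12 h (0.244) and 3 to 6 h (0.225), and it lay between 0.116 and 0.191 at the other steps. The synthetase medians at the same steps were 0.225 at 33 to 36 h, 0.192 at 9 to 12 h and 0.238 at 3 to 6 h.

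**Figure D1:**
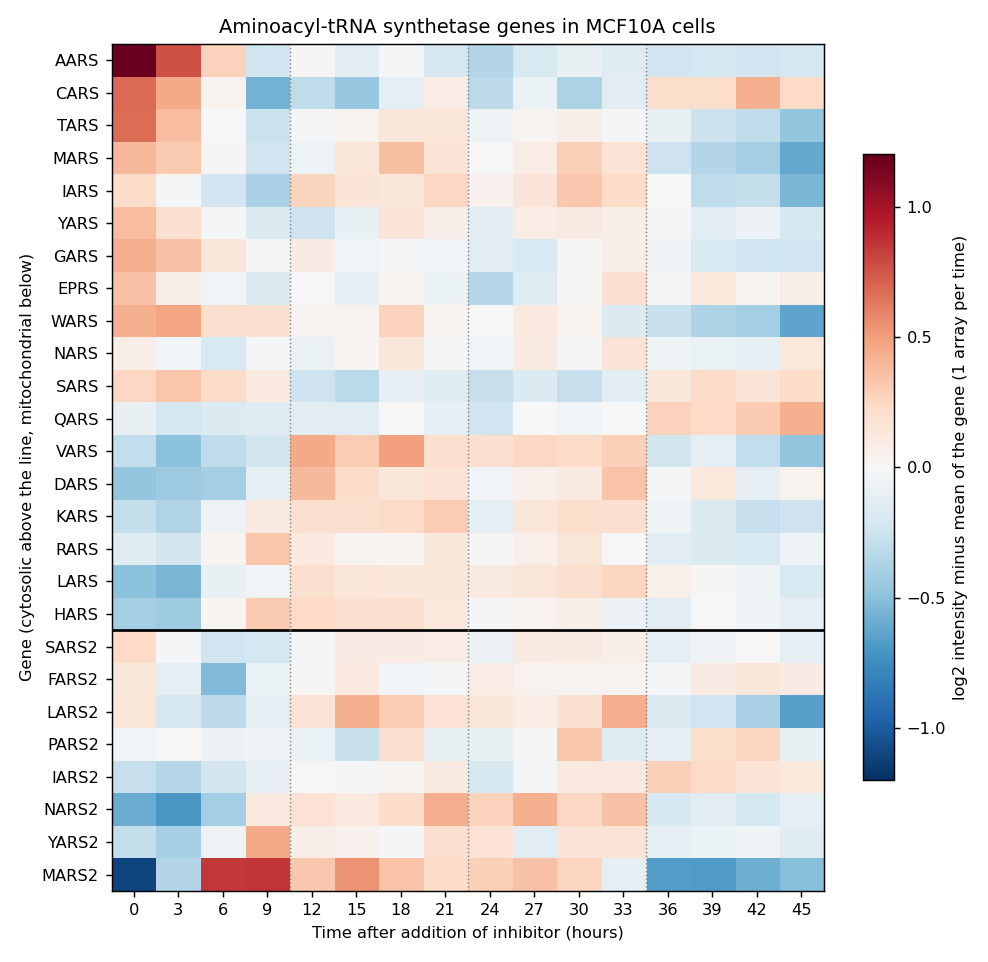
Heat map of the 26 synthetase genes (rows, cytosolic above mitochondrial) on the 16 arrays (columns, time in hours), coloured by log2 intensity minus the gene's mean over the series. AARS, TARS and CARS are high on the 0 and 3 h arrays, MARS2 and HARS are low there, and MARS, IARS and LARS2 are low on the 45 h array.

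The earliest comparison set 6 and 9 h against 0 and 3 h and split the synthetases in both directions. Of 26 genes, 9 fell and 7 rose (limma, fit of pairs of time points, adjusted p under 0.05), beside 11.5% lower and 13.2% higher among all tested probes. The median log2 difference was -0.13 over the synthetases and -0.01 over all tested probes. Among cytosolic genes 8 fell and 4 rose, and among mitochondrial genes 1 fell and 3 rose. Under median scaling 5 were lower and 7 higher, with 8.42% and 15% among all probes. Without the 9 h array 3 genes were lower (AARS, TARS and FARS2) and 3 higher, without the 0 h array 5 were lower, and from the 4 compared arrays alone 2 were called in each direction. Shares of all tested probes under these last settings are not given, so these shifts cannot be called particular to the synthetases.

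AARS, the alanine enzyme, had the largest fall. Its log2 intensity was 13.20, 12.77, 12.29 and 11.77 at 0, 3, 6 and 9 h, 12.03, 11.87, 12.00 and 11.81 at 12, 15, 18 and 21 h, 11.66, 11.83, 11.92 and 11.86 at 24, 27, 30 and 33 h, and 11.78, 11.80, 11.78 and 11.80 at 36, 39, 42 and 45 h. It was highest at 0 h and lower at each of the next 3 times, then stayed within a narrow band, so the first and second pair of arrays did not overlap. The log2 difference of 6 and 9 h against 0 and 3 h was -0.95 (SE 0.145, limma adjusted p = 0.00017), 1.93-fold lower. TARS, the threonine enzyme, had log2 intensities of 12.05, 11.76, 11.39 and 11.12 at 0, 3, 6 and 9 h, 11.37, 11.43, 11.52 and 11.53 at 12, 15, 18 and 21 h, 11.32, 11.42, 11.46 and 11.37 at 24, 27, 30 and 33 h, and 11.29, 11.13, 11.08 and 10.91 at 36, 39, 42 and 45 h. Its early pairs did not overlap and its 45 h array was the lowest of the series. The early log2 difference of TARS was -0.65 (SE 0.113, limma adjusted p = 0.00052), 1.57-fold lower.

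CARS, the cysteine enzyme, had log2 intensities of 8.55, 8.32, 7.91 and 7.31 at 0, 3, 6 and 9 h, 7.56, 7.41, 7.76 and 7.96 at 12, 15, 18 and 21 h, 7.55, 7.79, 7.49 and 7.73 at 24, 27, 30 and 33 h, and 8.08, 8.08, 8.30 and 8.10 at 36, 39, 42 and 45 h. It was low from 9 to 15 h and came back at 36 to 45 h to levels between those of 3 and 6 h. Its early log2 difference was -0.83 (SE 0.196, limma adjusted p = 0.005), 1.78-fold lower, and it was -0.53 and no longer called without the 9 h array, and -0.49 and still called without background correction. The glycine enzyme GARS fell by 0.34 and the tyrosine enzyme YARS by 0.37 on the log2 scale. Within the multisynthetase complex, MARS fell by 0.46, IARS by 0.41 and EPRS, which carries both a glutamate and a proline enzyme, by 0.32. The single mitochondrial gene that fell was SARS2, by 0.34. The limma adjusted p of these 6 genes lay between 0.004 and 0.035. Without the 0 h array EPRS was at -0.19 and SARS2 at -0.21, and neither was called. In none of the 9 genes did the pair of 6 and 9 h overlap that of 0 and 3 h. The same held for DARS, SARS, WARS, IARS2 and PARS2, which were not called, so it does not set the called genes apart.

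**Figure D2:**
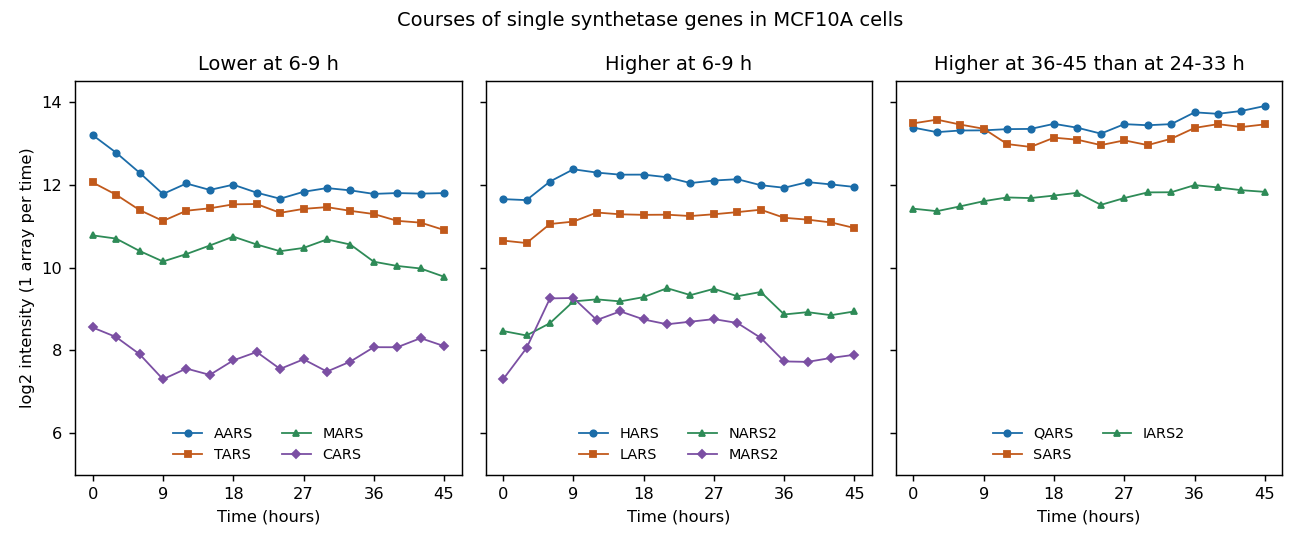
Log2 intensity (vertical axis) of single synthetase genes against time in hours, 1 array per point and 1 line per gene, for genes lower at 6 and 9 h (left), higher at 6 and 9 h (middle) and higher at 36 to 45 h than at 24 to 33 h (right). AARS goes from 13.20 to 11.77 over the first 9 h and MARS2 from 7.30 to 9.27, while QARS reaches 13.90 at 45 h, and the late difference of IARS2 turns to -0.02 under median scaling.

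MARS2 had the largest rise of any member. Its log2 intensities were 7.30, 8.06, 9.26 and 9.27 at 0, 3, 6 and 9 h, 8.73, 8.94, 8.75 and 8.63 at 12, 15, 18 and 21 h, 8.69, 8.76, 8.66 and 8.30 at 24, 27, 30 and 33 h, and 7.74, 7.72, 7.82 and 7.90 at 36, 39, 42 and 45 h. It was lowest at 0 h and highest at 6 and 9 h, held an intermediate level to 30 h, and was lower again from 36 h on. Its early log2 difference was 1.58 (SE 0.199, limma adjusted p = 3.1e-05), 2.99-fold higher, and was 1.05 and still called without background correction. The mitochondrial asparagine enzyme NARS2 had log2 intensities of 8.47, 8.36, 8.66 and 9.18 at 0, 3, 6 and 9 h, 9.23, 9.18, 9.29 and 9.50 at 12, 15, 18 and 21 h, 9.33, 9.49, 9.31 and 9.41 at 24, 27, 30 and 33 h, and 8.87, 8.92, 8.85 and 8.94 at 36, 39, 42 and 45 h. It was lowest at 0 and 3 h and highest between 21 and 33 h. Its early log2 difference of 0.51 (SE 0.155, limma adjusted p = 0.025) rested on the 9 h array, without which it was 0.24 and not called, while it was 0.77 without the 6 h array. YARS2 rose by 0.54 on the log2 scale (limma adjusted p = 0.008), and was at 0.29 and not called without the 9 h array.

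HARS, the histidine enzyme, was the cytosolic gene with the largest early rise. Its log2 intensities were 11.65, 11.63, 12.07 and 12.37 at 0, 3, 6 and 9 h, 12.29, 12.24, 12.24 and 12.18 at 12, 15, 18 and 21 h, 12.04, 12.10, 12.13 and 11.99 at 24, 27, 30 and 33 h, and 11.92, 12.06, 12.01 and 11.94 at 36, 39, 42 and 45 h. All 14 arrays from 6 h on were above both earlier ones. The early log2 difference was 0.58 (SE 0.095, limma adjusted p = 0.00029), 1.5-fold higher. The other 3 cytosolic genes that rose belong to the multisynthetase complex: LARS by 0.46, RARS by 0.36 and KARS by 0.35 on the log2 scale (limma adjusted p of 0.00075, 0.0082 and 0.021). Without the 9 h array RARS was at 0.21 and neither it nor KARS was called. Inside the complex 3 genes thus fell, 3 rose, and DARS (0.18) and QARS (-0.01) were not called. Of the 9 cytosolic genes of class I, 4 fell and 2 rose, and of the 8 of class II, 3 fell and 2 rose.

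**Figure D3:**
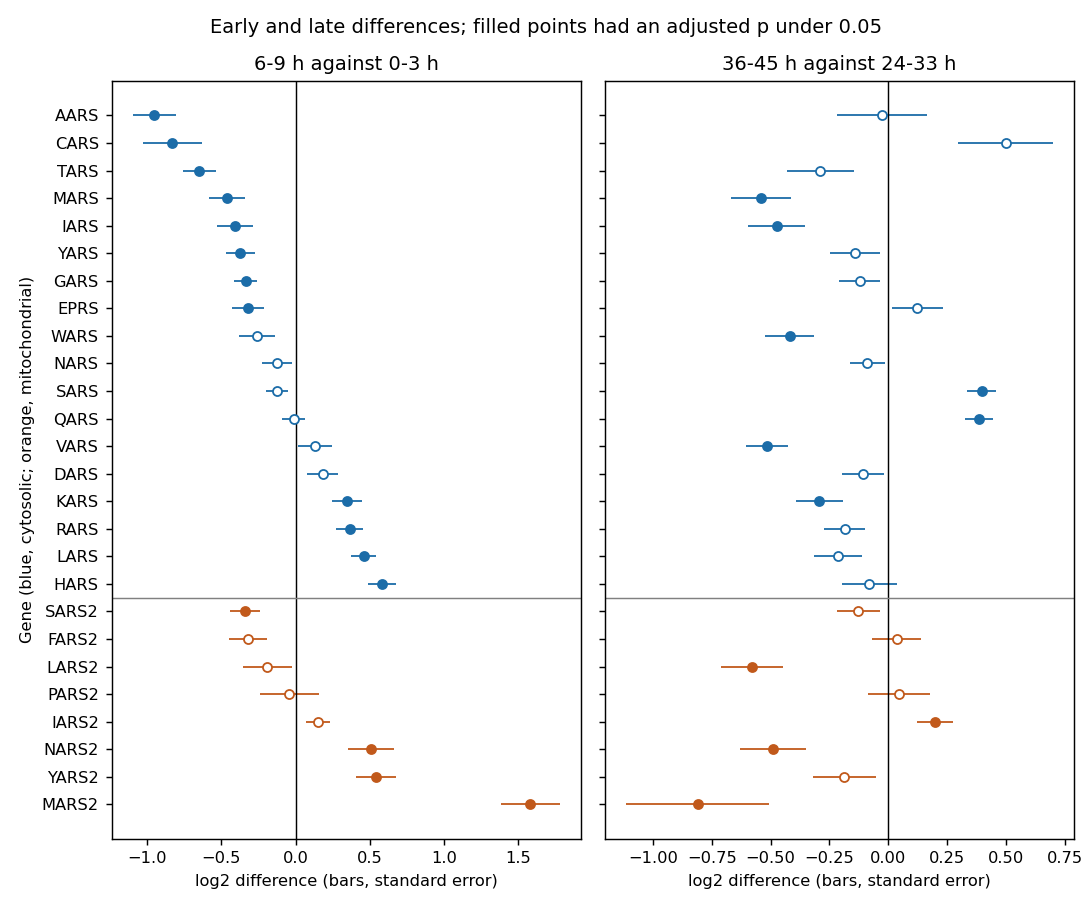
Log2 differences (horizontal axis) of each synthetase gene (rows) for 6 and 9 h against 0 and 3 h and for 36 to 45 h against 24 to 33 h, with bars of 1 standard error of the limma fit and filled points for an adjusted p under 0.05. MARS2 stands apart at 1.58 early and -0.81 late, and AARS is lowest early at -0.95.

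Promoter sequences were at hand from RefSeq (GRCh38.p14) for 21 of the 29 listed genes, 18 of them with a row on the array, after 25 symbols had been matched to a current gene. They were searched, 250 bases before the start and on both strands, for the C/EBP and ATF response element, through which ATF4 is known to bind amino acid stress genes, spelled TGATGNAAN. It was present in 3.13% of all 35116 promoters and the promoters of IARS and YARS2, which hold it, are shown as examples from genes called at 6 and 9 h. Capitals mark the match, and the sequences run 5′ to 3′ on the gene's strand, minus for both. IARS (chr9:92293698-92293947) holds the reverse complement, GTTGCATCA, beginning 14 bases before the start, and YARS2 (chr12:32755898-32756147) holds TGATGGAAA, 197 bases before it.
IARS: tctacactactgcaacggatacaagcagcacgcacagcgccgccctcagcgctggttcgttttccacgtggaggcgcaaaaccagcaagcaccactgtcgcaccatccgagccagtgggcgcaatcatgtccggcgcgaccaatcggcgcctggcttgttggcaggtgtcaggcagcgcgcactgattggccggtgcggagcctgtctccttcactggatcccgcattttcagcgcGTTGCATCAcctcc
YARS2: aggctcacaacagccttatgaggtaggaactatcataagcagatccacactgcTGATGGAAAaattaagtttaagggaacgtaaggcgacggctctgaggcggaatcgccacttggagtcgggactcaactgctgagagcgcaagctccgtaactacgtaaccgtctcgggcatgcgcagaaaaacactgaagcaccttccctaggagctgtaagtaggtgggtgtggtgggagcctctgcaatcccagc
IARS fell early and YARS2 rose. A match is a run of letters, and binding was not measured.

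Amino acid stress genes, those known to answer to ATF4, were set beside the synthetases. Of 18 listed, 14 were tested, and 7 of these fell and none rose at 6 and 9 h, with a median log2 difference of -0.57. Among all tested probes 11.5% fell and 13.2% rose there, with a median of -0.01. From 0 to 9 h to the last window of 36 to 45 h, 15% of tested probes fell and 16.2% rose, with a median of -0.02. Of the stress genes 7 fell and none rose between these windows, with a median of -0.79. The 4 with the largest changes there were PSAT1, an enzyme of serine synthesis, at -1.56 (limma adjusted p = 1.8e-06), SLC7A5, a transporter of large neutral amino acids, at -1.33 (4.5e-08), the asparagine synthetase ASNS at -1.25 (1.8e-06) and SLC3A2, the partner chain of SLC7A5, at -1.23 (2.6e-08). Of these 4, PSAT1 and ASNS were also called lower at 6 and 9 h, while SLC7A5 (-0.07) and SLC3A2 (-0.03) were not. The 7 genes that fell early and the 7 that fell over the series were thus not the same set. ATF4 itself, chosen after its values were seen, fell by 0.76 on the log2 scale at 6 and 9 h (limma adjusted p = 0.00013). It rose by 0.41 at 36 to 45 h against 24 to 33 h (limma adjusted p = 0.039), and over the whole series it was at 0.38 and not called (adjusted p = 0.066). Relative to each gene's own mean, the median of these 14 genes was 0.90, -0.02, -0.07 and -0.04 at 0, 6, 9 and 18 h. That of the 18 cytosolic synthetases was 0.24, -0.01, -0.14 and 0.13 at these times. For the 8 mitochondrial ones it was -0.16, -0.23, -0.06 and 0.15. Whether the groups are linked was not tested.

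**Figure D4:**
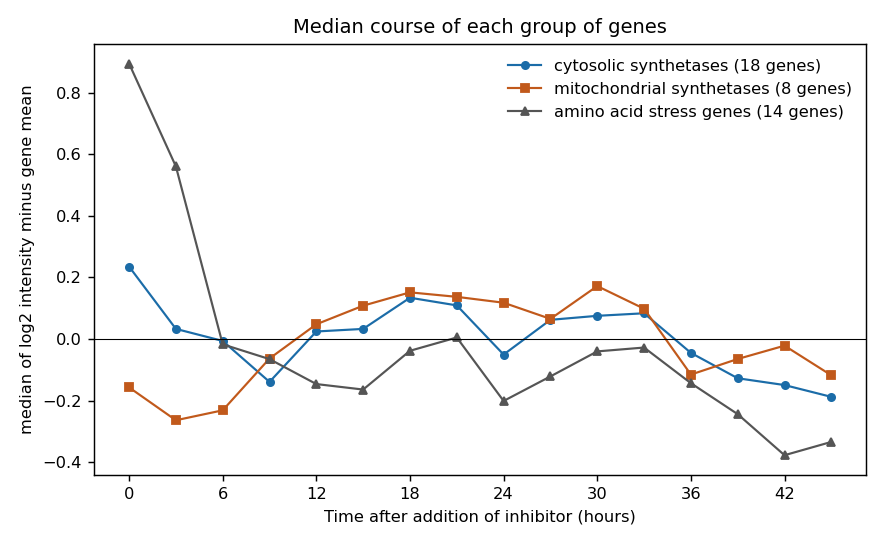
Median, over the genes of a group, of log2 intensity minus the gene's own mean (vertical axis) against time in hours, for 18 cytosolic synthetases, 8 mitochondrial synthetases and 14 amino acid stress genes, 1 array per point. The stress genes start at 0.90 and the cytosolic synthetases at 0.24, whereas the mitochondrial synthetases start at -0.16. Every line, that of the stress genes included, stands below 0 from 36 h on.

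From the first window of 0 to 9 h to the second of 12 to 21 h, 7 synthetases rose and 2 fell (limma, fit of 4 windows), beside 15.1% higher and 14.4% lower among tested probes. Scaling by the array median in place of quantile normalization gave 13 higher and 1 lower, and among all probes 23.5% higher and 8.61% lower. The median log2 difference of the synthetases was 0.10, with -0.0006 over all tested probes. VARS, the valine enzyme, and DARS, the aspartate enzyme of the complex, had the largest rises of the cytosolic genes. The log2 intensities of VARS, whose row is a combined value, were 10.41, 10.21, 10.40 and 10.49 at 0, 3, 6 and 9 h, 11.16, 11.00, 11.19 and 10.90 at 12, 15, 18 and 21 h, 10.90, 10.95, 10.92 and 10.99 at 24, 27, 30 and 33 h, and 10.48, 10.58, 10.40 and 10.23 at 36, 39, 42 and 45 h. All 8 arrays from 12 to 33 h were above all 8 others. Its log2 difference between these windows was 0.69 (SE 0.090, limma adjusted p = 3.7e-05). DARS had log2 intensities of 12.48, 12.50, 12.53 and 12.82 at 0, 3, 6 and 9 h, 13.32, 13.16, 13.07 and 13.10 at 12, 15, 18 and 21 h, 12.90, 13.00, 13.05 and 13.28 at 24, 27, 30 and 33 h, and 12.93, 13.06, 12.83 and 12.97 at 36, 39, 42 and 45 h. Its 12 to 21 h arrays were all above the 4 earlier ones, with 12 h the highest of the series. The log2 difference of DARS was 0.58 (SE 0.089, limma adjusted p = 0.00013).

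Among mitochondrial genes NARS2 rose by 0.63, LARS2 by 0.38 and IARS2 by 0.26 on the log2 scale between these windows, and under median scaling IARS2 was at 0.46. The call for LARS2 was lost without the 3, 6, 15 or 18 h array, without a filter and from the compared windows alone, and that for IARS2 without the 3 h array. In the complex LARS rose by 0.44 and KARS by 0.38. The limma adjusted p of these 5 genes lay between 0.0025 and 0.037. SARS, the serine enzyme, went the other way. Its log2 intensities were 13.48, 13.57, 13.45 and 13.35 at 0, 3, 6 and 9 h, 12.98, 12.91, 13.13 and 13.08 at 12, 15, 18 and 21 h, 12.95, 13.07, 12.95 and 13.11 at 24, 27, 30 and 33 h, and 13.37, 13.46, 13.39 and 13.45 at 36, 39, 42 and 45 h. The 8 arrays from 12 to 33 h were all below the other 8, the reverse of VARS. Its log2 difference was -0.43 (SE 0.061, limma adjusted p = 6.9e-05). AARS, at -0.58 (SE 0.191, adjusted p = 0.029), overlapped between the windows and was not called without the 0, 3, 15 or 21 h array, under median scaling or from the compared windows alone, with a value of -0.35 without the 0 h array. Without the 9 h array 4 genes were lower, with CARS and GARS added, and the share of all probes without it is not given.

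No synthetase was called between 12 to 21 h and 24 to 33 h (limma, with 0 of 26 genes also at an unadjusted p under 0.05), where 0% of tested probes were higher and 0.0251% lower. The log2 differences of the 26 genes lay between -0.17 and 0.08.

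From 24 to 33 h to 36 to 45 h, 8 synthetases fell and 3 rose (limma), beside 18.7% lower and 19.3% higher among tested probes. Median scaling gave 16 lower and 2 higher, with 24.5% and 14.4% among all probes. The median log2 difference was -0.13 over the synthetases and -0.0021 over all tested probes. LARS2, the mitochondrial leucine enzyme, had log2 intensities of 8.61, 8.27, 8.15 and 8.35 at 0, 3, 6 and 9 h, 8.61, 8.89, 8.76 and 8.63 at 12, 15, 18 and 21 h, 8.61, 8.56, 8.65 and 8.90 at 24, 27, 30 and 33 h, and 8.30, 8.22, 8.07 and 7.81 at 36, 39, 42 and 45 h. All 4 of its last arrays were below the 8 before them, and 45 h was the lowest of the series. Its log2 difference was -0.58 (SE 0.131, limma adjusted p = 0.002), and -0.38, still called, without background correction. MARS, the cytosolic methionine enzyme, had log2 intensities of 10.78, 10.70, 10.40 and 10.15 at 0, 3, 6 and 9 h, 10.33, 10.53, 10.75 and 10.56 at 12, 15, 18 and 21 h, 10.39, 10.47, 10.68 and 10.55 at 24, 27, 30 and 33 h, and 10.14, 10.04, 9.98 and 9.78 at 36, 39, 42 and 45 h. It was low at 9 h, recovered by 18 h and was lower on each of the last 4 arrays than on any of 12 to 33 h. The log2 difference of MARS was -0.54 (SE 0.129, limma adjusted p = 0.0029).

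VARS fell by 0.52 on the log2 scale (limma adjusted p = 0.00023), which took it back to the range of the first window on 3 of 4 arrays. NARS2 fell by 0.49, IARS by 0.47, WARS by 0.42 and KARS, whose windows overlapped, by 0.29 (limma adjusted p of 0.01, 0.0048, 0.0042 and 0.03). Leaving out the 27, 30, 33, 39, 42 or 45 h array each ended the call for KARS. MARS2 stood at -0.81 (SE 0.303, limma adjusted p = 0.043), a call that held in 12 of 25 alternatives, with a value of -0.51 without background correction. The SD of its 4 first arrays was 0.96, against 0.08 to 0.20 in the later windows, and enters that error.

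QARS, the glutamine enzyme of the complex, and SARS rose late. The log2 intensities of QARS were 13.38, 13.27, 13.31 and 13.31 at 0, 3, 6 and 9 h, 13.34, 13.34, 13.47 and 13.37 at 12, 15, 18 and 21 h, 13.23, 13.46, 13.43 and 13.46 at 24, 27, 30 and 33 h, and 13.74, 13.71, 13.78 and 13.90 at 36, 39, 42 and 45 h. Its last 4 arrays were the 4 highest of the series. The log2 difference was 0.39 for QARS (SE 0.059, limma adjusted p = 6.1e-05) and 0.40 for SARS (SE 0.061, adjusted p = 6.8e-05), and under median scaling both stayed called at 0.21 and 0.22. IARS2, the mitochondrial isoleucine enzyme, had log2 intensities of 11.42, 11.36, 11.48 and 11.60 at 0, 3, 6 and 9 h, 11.69, 11.68, 11.74 and 11.80 at 12, 15, 18 and 21 h, 11.51, 11.68, 11.81 and 11.82 at 24, 27, 30 and 33 h, and 11.99, 11.93, 11.87 and 11.83 at 36, 39, 42 and 45 h. Its last 4 arrays were above all others, but the late log2 difference of 0.20 (SE 0.076, adjusted p = 0.048) turned to -0.02 under median scaling and held in 10 of 25 alternatives.

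Over the whole series, from 0 to 9 h to 36 to 45 h, 5 synthetases fell and 3 rose (limma), beside 15% lower and 16.2% higher among tested probes. Under median scaling 4 were lower and 5 higher, with 8.61% and 23.4% among all probes. Without the 9 h array 5 were higher, LARS and NARS2 being added, and from the compared windows alone 3 were lower. Shares of all probes under these last settings are not given. The synthetase median was -0.02, as was that of all tested probes. WARS, the tryptophan enzyme, which is also known as an interferon-induced gene, fell the most. Its log2 intensities were 10.17, 10.22, 9.94 and 9.93 at 0, 3, 6 and 9 h, 9.77, 9.77, 10.02 and 9.77 at 12, 15, 18 and 21 h, 9.75, 9.86, 9.78 and 9.58 at 24, 27, 30 and 33 h, and 9.47, 9.37, 9.34 and 9.11 at 36, 39, 42 and 45 h. The last 4 arrays were below all 12 others, with 45 h the lowest. Its log2 difference was -0.74 (SE 0.105, limma adjusted p = 4.6e-05), 1.67-fold lower. AARS fell by 0.72, MARS by 0.52, TARS by 0.48 and GARS by 0.40 (limma adjusted p of 0.008, 0.005, 0.015 and 0.002), of which AARS and TARS were not called from the compared windows alone, nor TARS under median scaling or without the 45 h array. QARS rose by 0.47 (SE 0.059, limma adjusted p = 1.5e-05), 1.38-fold, IARS2 by 0.44 and DARS by 0.37 (adjusted p of 0.0003 and 0.0043). All 5 members that fell are listed as cytosolic, and of the mitochondrial members only IARS2 was called. Outside the member list, the mitochondrial alanine enzyme AARSL was called lower, at -0.44 (limma adjusted p = 0.046). MARS2, at -0.68, was not (limma adjusted p = 0.099).

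Gene by gene, KARS, NARS2 and MARS2 were called higher early and lower late, and MARS and IARS lower at both times. Of these, the early calls of KARS and NARS2 were lost without the 3 or the 9 h array, those of MARS and IARS without the 9 h array or under median scaling, that of IARS also without the 0 h array, and the late calls of KARS and MARS2 under the alternatives given above. No member rose at both, and none fell early and rose late, while CARS, at 0.50 late, was not called (limma adjusted p = 0.061). LARS2, VARS and WARS fell late without an early call, and QARS, SARS and IARS2 rose late without one. These comparisons share arrays, so the counts are not independent of each other. Joint patterns were not counted over all tested probes, so they cannot be called particular to the synthetases.

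Cytosolic and mitochondrial enzymes for the same amino acid could be set side by side for 6 amino acids at 6 and 9 h against 0 and 3 h. For methionine the log2 difference was -0.46 for MARS and 1.58 for MARS2, and for tyrosine it was -0.37 for YARS and 0.54 for YARS2, with all 4 called. For leucine it was 0.46 for LARS and -0.19 for LARS2, and for isoleucine -0.41 for IARS and 0.15 for IARS2, with only the cytosolic gene called. For asparagine it was -0.13 for NARS and 0.51 for NARS2, and for serine -0.13 for SARS and -0.34 for SARS2, with only the mitochondrial gene called. Of the genes called here, all but LARS and MARS2 lost the call without the 9 h array, and only MARS2 kept it from the compared arrays alone. At 36 to 45 h against 24 to 33 h both partners for methionine, tyrosine, leucine and asparagine had negative values. Those for isoleucine and serine had opposite signs there. The differences between the partners were not tested.

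Of the other members, FARS2, NARS and PARS2, the mitochondrial phenylalanine, cytosolic asparagine and mitochondrial proline enzymes, were called in no comparison and were not time-dependent (limma adjusted p of 0.46, 0.91 and 0.74). PARS2 was dim, at log2 intensities from 6.35 to 6.95. EPRS, SARS2 and YARS2 had an early call but no call for time dependence (0.056, 0.54 and 0.064). A second row for IARS was above background on none of the 16 arrays and was not tested.

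Other genes of aminoacylation include synthetases outside the member list, scaffold proteins and enzymes that finish tRNAs. Of 15 tested, 5 rose and none fell at 6 and 9 h, 3 rose and none fell at 12 to 21 h, 6 fell and none rose at 36 to 45 h against 24 to 33 h, and 3 fell and none rose over the whole series. Among all tested probes 13.2% were higher and 11.5% lower at 6 and 9 h, and 15.1% higher and 14.4% lower at 12 to 21 h. At 36 to 45 h against 24 to 33 h 19.3% were higher and 18.7% lower, and over the whole series 16.2% and 15%. Of these 15 genes, the largest differences over the series were those of AARSL, the mitochondrial alanine enzyme, at -0.44 (limma adjusted p = 0.046), JTV1, a scaffold of the multisynthetase complex, at -0.39 (adjusted p = 0.0014), and TARSL1 (0.30) and FARSLA (-0.30), which were not called. FARSLA, the alpha subunit of the phenylalanine enzyme, rose early by 1.06. TRNT1, which adds the CCA end to tRNAs and was named after its values were seen, rose 4.07-fold early, a log2 difference of 2.03 (limma adjusted p = 4.1e-07). Of 8 tested elongation factors, which bring charged tRNAs to the ribosome or move it along the mRNA, 5 fell and none rose at 12 to 21 h. At 36 to 45 h against 24 to 33 h, 3 rose and 1 fell, beside the same shares of all tested probes. Over the whole series 1 elongation factor was called, EEF1B2, at -0.11 (limma adjusted p = 0.049).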

How the data were processed

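RNA from MCF10A cells was measured on 16 Illumina human Ref8v2 arrays, with 1 array per time point and groups taken from the labelled treatment times. The authors deposited bead intensity on a linear scale, without normalization across the series, beside detection p-values, for 20589 rows, of which 19092 stand for a single probe and 1497 are combined. The paper's methods state quantile normalization, and the summary software and any background correction are not given in the sources used here. The deposited values of all arrays were corrected with normexp (offset 16), with the negative control level inferred from the single-probe rows and their detection p (708 beads, mean 166 to 199 per array), then quantile normalized and put on a log2 scale (R 4.3.3, limma 3.58.1). The offset compresses values near background, which understates the change of dim probes. Without any background correction the early log2 differences of the dim MARS2 and CARS were smaller still, at 1.05 and -0.49. A probe was kept if its detection p was under 0.05 on 3 or more arrays (11957 probes), and the brightest probe stood for a gene. The number of arrays limits the precision.

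For time dependence, a natural cubic spline with 3 degrees of freedom (12 residual) was fitted and given a moderated F-test in limma, and contrasts with limma in a fit of 4 windows of 4 time points (12 residual) or, for the earliest contrast, of 8 pairs (8 residual), with an intensity trend. Adjusted p-values use the Benjamini-Hochberg method over all 11957 probes, with calls under 0.05. Windows and pairs hold different times rather than replicates, and p-values are measured against a spread that includes change within them. Scripts were tested on simulated data.

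The members and lists were chosen with earlier results of these data known. Values on every array are given for time-dependent genes among the 3 largest rises or falls called in any contrast, other members are given by ranges, counts and differences, and genes of other lists by counts and up to 4 with the largest change of 36 to 45 h against 0 to 9 h, apart from ATF4 and TRNT1. Symbols are those of the array, whose annotation build is not given in the sources used here. Promoters are RefSeq's (GRCh38.p14). A member's promoter and a marker gene are not reported here, so no count of promoter matches over members is given. Alternatives were other background correction, offset, normalization, filters, curves, probes and variance settings, only the compared arrays, and leaving out each array. The probe alternative took a gene's dimmest row. It could change no call, since only IARS had a second row and that row was not tested. It still counts among the alternatives given for MARS2 and IARS2. Figures were drawn with matplotlib 3.10.9.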

Additional observations from a re-analysis of the deposited data

How the results depend on the processing

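Of the 44 pairs of a gene and a contrast that were called, 24 kept their call and direction under every alternative run, and 1 reversed, IARS2 at 36 to 45 h against 24 to 33 h, at -0.017 under median scaling. With a straight line fitted instead of the curve, 7 genes were time-dependent, as were 16.3% of all probes. Under median scaling the counts moved to 5 lower at 6 and 9 h, to 13 higher and 1 lower at 12 to 21 h against 0 to 9 h, to 16 lower at 36 to 45 h against 24 to 33 h and to 5 higher over the whole series. Fitted on the compared arrays alone, which leaves fewer degrees of freedom, the early contrast had 2 higher and 2 lower, 12 to 21 h against 0 to 9 h had 1 lower, and the whole series 3 lower, and 28 of the 44 calls were kept. Leaving out each array in turn gave 18 to 22 time-dependent genes, 3 to 8 higher and 3 to 10 lower at 6 and 9 h, 5 to 10 higher and 1 to 4 lower at 12 to 21 h against 0 to 9 h, 2 to 4 higher and 6 to 10 lower at 36 to 45 h against 24 to 33 h, and 3 to 5 higher and 4 to 6 lower over the whole series. Shares of all tested probes are not given for fits on the compared arrays or without an array. Changes of the counts under these settings thus cannot be called particular to the synthetases. The 9 h array mattered most for the calls, of which 33 were kept without it. The offset of 50 kept all 44 calls, and cyclic loess and no background correction kept 43 each. The cause of these shifts was not tested. No paired analysis was possible because each time point has a single array. A chip or date block was not run, since the labels name neither.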
